A study of Gallus gallus with 15 samples.

Results

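The genes described here code for nuclear subunits of the respiratory chain (complexes I to IV) and of ATP synthase (complex V) in chicken breast muscle. They were chosen by name alone: every gene name in the expression table that follows the pattern NDUFA, NDUFB, NDUFC, NDUFS or NDUFV with a number, SDHA to SDHD, UQCR, COX4 to COX8 or ATP5. The name patterns use no measured value, but they were set with earlier results of these data known. It gave 64 genes of 23599 gene names, with 30 in complex I, 3 in complex II, 7 in complex III, 8 in complex IV and 16 in complex V. Subunits whose names are outside these patterns or that were not found in the table under their usual names were not analysed here as members. Among them are SDHC, UQCRC2, CYC1, COX5B and the muscle forms COX6A2 and COX7A1. The summed level of a complex thus covers only the members found.

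Breast muscle came from 15 Jingyuan hens, a Chinese local breed, with 5 birds each at 42, 126 and 180 days of age. All hens had been reared on the same farm with free access to feed and water, and no treatment was given. Age is the only difference between the groups that the labels give, and it cannot be told apart from the date of slaughter. The ages stand for the start of the rearing period, sexual maturity and market age. Poly(A) RNA was sequenced in pairs of reads, and expression is given as FPKM, a fragment count divided by transcript length in kilobases and by the library's mapped fragments in units of 1000000. Each bird was slaughtered at 1 age, so the ages compare different birds.

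Complexes I and II pass electrons from NADH and succinate to ubiquinone, complex III passes them on to cytochrome c, and complex IV hands them to oxygen. Complexes I, III and IV pump protons across the inner mitochondrial membrane, and ATP synthase uses that gradient to make ATP. Most subunits are coded in the nucleus, while a small number of core subunits of complexes I, III, IV and V are coded in mitochondrial DNA. Chicken breast muscle consists almost wholly of fast glycolytic fibres, which hold fewer mitochondria than the red fibres of the leg.

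The FPKM of a bird summed to between 413638 and 481698, and the depth of the libraries is unknown because FPKM carry no read counts. Correlations between birds on the log2 scale lay between 0.806 and 0.964. The tissue label was checked against marker genes. The 9 fast fibre markers found of 18 listed summed to between 14791 and 35330.3 FPKM. Of these, TNNT3 and MYL1 had at least 3884 and 7310 FPKM in every bird. The others were lower, with CASQ1 at 47.3 to 149.7 FPKM and PVALB at most 4.37 FPKM. The 9 slow fibre markers found of 10 listed summed to between 2051 and 4489 FPKM, nearly all of it from TNNC1 and CASQ2. TNNC1 had a median of 2853 FPKM over all birds, above the fast fibre gene TNNC2 with 1457 FPKM. CASQ2 had a median of 587 FPKM, above the fast fibre gene CASQ1 with 102 FPKM. The slow myosin gene MYH7 reached at most 0.06 FPKM and MYL2 was listed at 0 in every bird. The labels also call the material myoblasts and primary cells. The 8 myoblast markers found of 9 listed summed to between 511 and 2945 FPKM. DES, which mature fibres also express, had 415 to 2777 FPKM and MYOD1 56.3 to 573 FPKM, while PAX7, MYF5 and MYOG had at most 6.60, 20.2 and 10.1 FPKM. In whole muscle, fewer cells of a type and less RNA per cell cannot be told apart.

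None of the 64 genes passed the test between any 2 ages. Each pair of ages was compared with limma on log2(FPKM + 0.1), in the 10 birds of that pair, with Benjamini-Hochberg adjustment over all genes tested and a threshold of 0.05 on the adjusted p. All 64 genes passed the filter of a mean of at least 0.5 FPKM in each comparison. At 126 against 42 days 0 of 64 were called, where 3.21% of 11482 genes tested were called. At 180 against 42 days 0 of 64 were called, where 3.41% of 11692 genes were. At 180 against 126 days 0 of 64 were called, where 1.25% of 11515 genes were. The lowest adjusted p (limma) among the members was 0.183 at 126 against 42 days, 0.240 at 180 against 42 days and 0.1095 at 180 against 126 days.

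Without adjustment, 2 members had a p under 0.05 at 126 against 42 days, COX4I1 and COX6A1, both lower at 126 days, while 19.6% of all genes tested had one, 14.1% lower and 5.55% higher at 126 days. At 180 against 42 days this held for 1 member, UQCRB, which was lower at 180 days, and for 17.6% of all genes, 12.8% lower and 4.86% higher at 180 days. At 180 against 126 days it held for 9 members and for 15.8% of all genes, 8.68% higher and 7.11% lower at 180 days. Of these 9, NDUFB6, NDUFS5, NDUFB2, COX6A1 and ATP5D were higher at 180 days, and ATP5PO, ATP5C1, ATP5MC1 and ATP5G3 were lower. Hence the number of members below this limit was under the share of all genes in the first 2 comparisons and close to it in the third.

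The size of change that these birds leave possible was also limited. In each comparison, 58 of 64 members had a 95% interval (limma) of the log2 fold change that lay within 1 in either direction, which is the fold limit that the study set for a differentially expressed gene. The fold change itself was under 0.5 in absolute size in 61, 62 and 59 members at 126 against 42, 180 against 42 and 180 against 126 days. Half-widths of these intervals had a median of 0.39, 0.37 and 0.35 over the members, against 0.60, 0.62 and 0.60 over all genes tested. By the median, the members thus had narrower intervals than all genes tested. Those of NDUFB2, NDUFB6, NDUFS3, NDUFS5, COX6A1 and COX7A2 were wider in each comparison, and those of ATP5D, NDUFB9 and ATP5S in some. The fit lets the width depend on the mean level, and no comparison with genes of similar level was made.

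**Figure D1:**
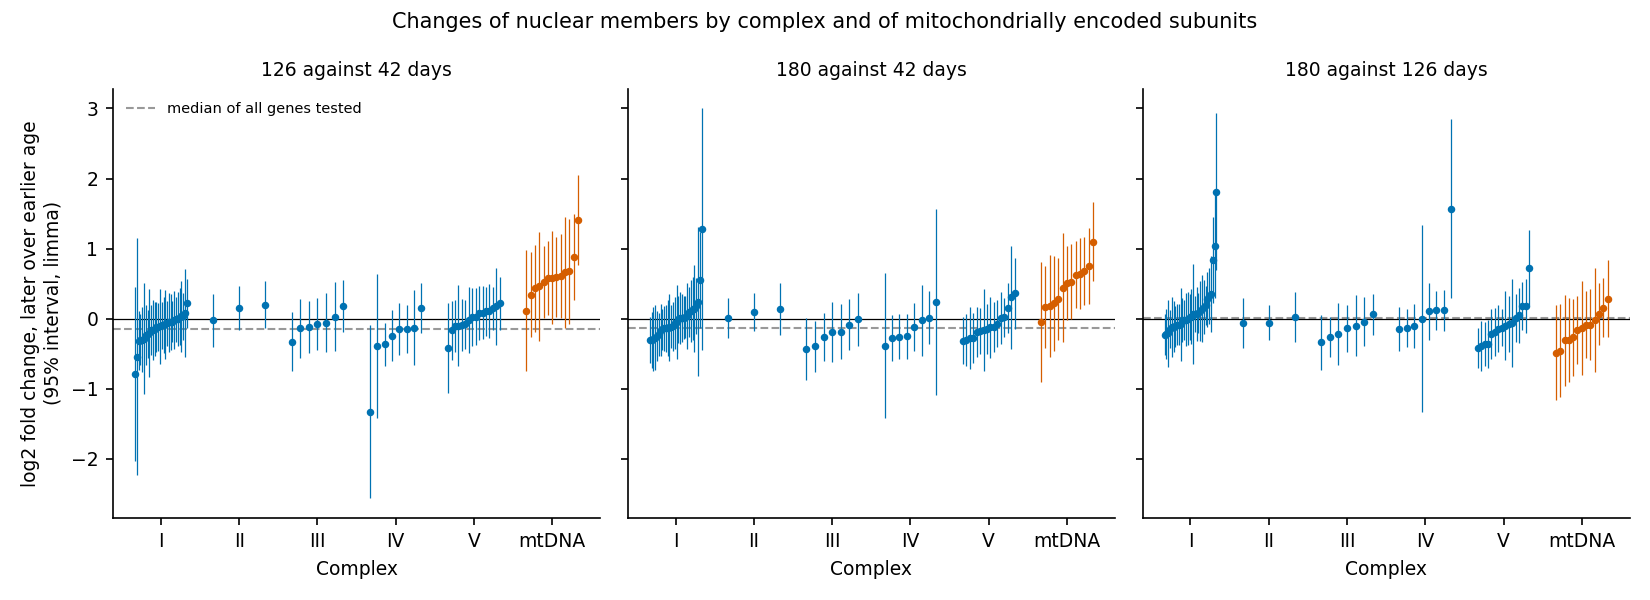
Log2 fold change of each gene (vertical axis, later over earlier age, limma) with its 95% interval, for the 64 nuclear members ordered within complexes I to V and, in orange, the 13 mitochondrially encoded subunits (mtDNA), which are not members. The dashed line is the median of all genes tested. Most members lie close to 0, with wide intervals for a few genes of complexes I and IV, and the mitochondrially encoded subunits lie above 0 in both comparisons with 42 days, apart from ND3 at 180 against 42 days (-0.05).

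Taken by complex, the medians stayed near 0. At 126 against 42 days the median log2 fold change was -0.10 for complex I, 0.15 for complex II, -0.08 for complex III, -0.20 for complex IV and 0.03 for complex V, and -0.15 for all genes tested. At 180 against 42 days it was -0.06, 0.10, -0.19, -0.18 and -0.13 for complexes I to V, and -0.13 for all genes. At 180 against 126 days it was 0.03, -0.06, -0.14, 0.05 and -0.11 for complexes I to V, and 0.01 for all genes. Over all 64 members the medians were -0.08, -0.11 and -0.03 in these comparisons, and 43, 37 and 27 members lay above the median of all genes. Quantile normalization moved the median of all genes to -0.01 at 126 against 42 days and to 0.00 at 180 against 42 days, and that of the members to 0.02 and -0.02. The direction of the small shift between 126 and 42 days thus depends on the scaling.

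**Figure D2:**
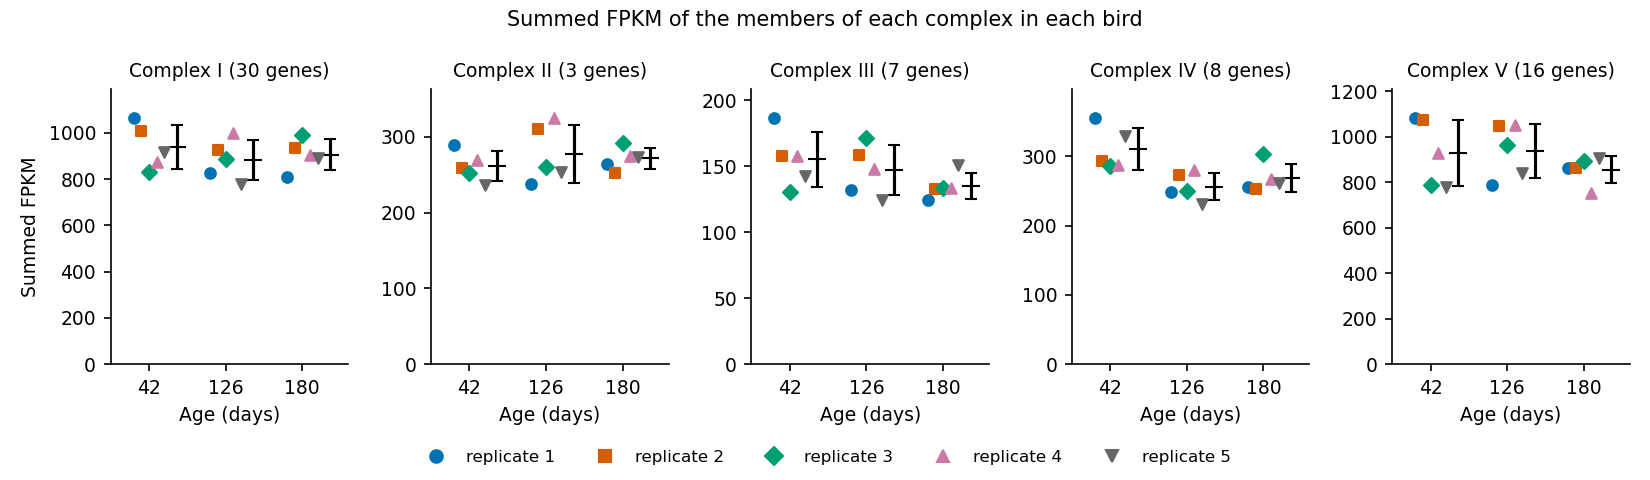
Summed FPKM of the members of each complex (vertical axis, starting at 0) in each bird at 42, 126 and 180 days of age (horizontal axis). Symbols are birds, and the bar beside them is the mean with 1 SD (n = 5). In complex IV all birds at 126 days lie below all birds at 42 days, while the ages overlap in the other complexes.

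Complex I takes electrons from NADH, and its 30 members had a summed level of 939 ± 95.4, 885 ± 86.3 and 906 ± 65.8 FPKM at 42, 126 and 180 days (SD, n = 5 each). NDUFS1, which carries iron-sulfur clusters in the core of the complex, was its most abundant member with a mean of 102 FPKM over all birds. NDUFS1 had 71.0, 121, 103, 133 and 83.3 FPKM in the birds at 126 days, against 95.7, 119.5, 89.5, 104 and 96.7 FPKM at 42 days. The log2 fold change was -0.01 (95% interval -0.43 to 0.40), and the ages overlapped. NDUFA4 followed at 92.2 ± 10.3, 89.3 ± 5.60 and 93.8 ± 8.93 FPKM at 42, 126 and 180 days. NDUFA4 has the name of a complex I subunit but is now placed in complex IV. Moving it there changed the median of complex IV at 126 against 42 days to -0.15 and left that of complex I at -0.10. At the low end, NDUFA1 averaged 1.27 FPKM, and 7 of the 30 members were under 10 FPKM while 7 were over 50 FPKM. The log2 fold changes of the 30 members ran from -0.79 (NDUFS5) to 0.22 (NDUFA9) at 126 against 42 days, with 25 below 0. They ran from -0.30 (NDUFV2) to 1.27 (NDUFB6) at 180 against 42 days and from -0.23 (NDUFA9) to 1.81 (NDUFB6) at 180 against 126 days, with 17 and 14 below 0. Over all genes tested, 7276 of 11482, 7419 of 11692 and 5688 of 11515 were below 0 in these comparisons.

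NDUFV2, an iron-sulfur subunit in the arm of complex I that takes up NADH, had 17.4, 16.5, 20.9, 17.1 and 17.5 FPKM at 180 days, against 27.0, 23.9, 18.2, 21.1 and 20.8 FPKM at 42 days. Its log2 fold change of -0.30 (SE 0.15, adjusted p = 0.335, limma) was the lowest of the complex in that comparison, and the ages overlapped. NDUFA9, an accessory subunit, had the highest fold change among the members at 126 against 42 days, 0.22 (95% interval -0.13 to 0.57). NDUFA9 was spread over 7 entries of the table, of which the largest held 38.83% of its FPKM, so its level rests on the sum.

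NDUFB6, an accessory subunit, varied most between birds in complex I. It had 7.21, 22.7, 15.6, 9.24 and 3.73 FPKM at 180 days, against 1.49, 1.70, 6.73, 4.16 and 1.98 FPKM at 126 days. Its log2 fold change of 1.81 (SE 0.51, 95% interval 0.70 to 2.93) was the largest of all members and had the lowest adjusted p, 0.1095 (limma), and so was not called. At 42 days NDUFB6 had 7.16, 26.02, 0.88, 1.25 and 4.38 FPKM, so the birds of that age covered the range of both later ages.

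NDUFS5, also an accessory subunit, had 13.4, 13.6, 15.8, 17.4 and 13.7 FPKM at 180 days, against 3.89, 4.13, 13.2, 13.2 and 6.51 FPKM at 126 days. These ages did not overlap, which held for 1 of 64 members in this direction and for 2.54% of all genes tested. No member was lower at 180 than at 126 days without overlap, as 1.76% of all genes were. The log2 fold change of NDUFS5 was 1.03 (SE 0.34, 95% interval 0.29 to 1.77, adjusted p = 0.160, limma). At 42 days it had 19.8, 23.6, 2.54, 12.7 and 19.1 FPKM, so that these birds covered the range of both later ages. NDUFB2, a membrane-arm accessory subunit that was picked out after its values were seen, had 12.1, 11.7, 14.8, 11.1 and 7.66 FPKM at 180 days, against 5.11, 4.27, 12.3, 7.05 and 4.91 FPKM at 126 days.

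**Figure D3:**
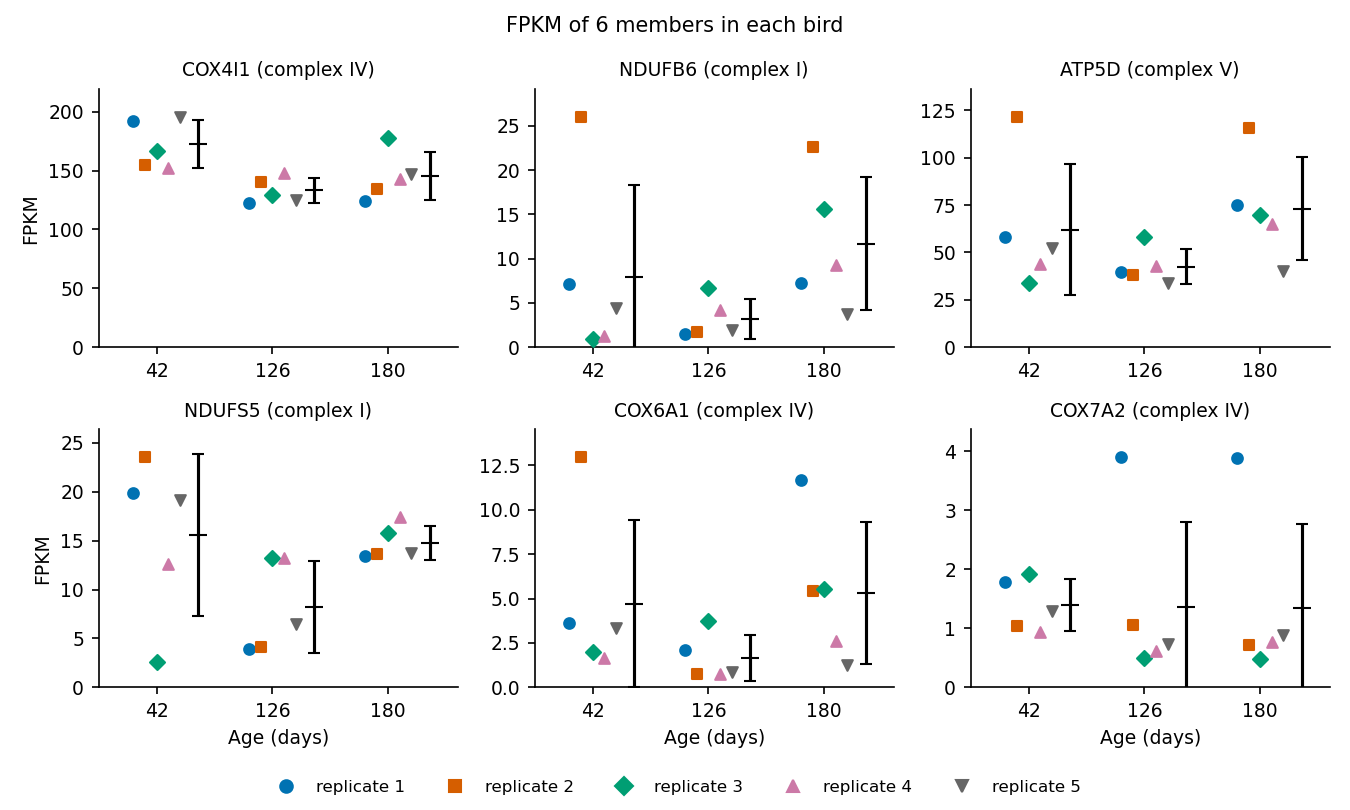
FPKM (vertical axis, starting at 0) of 6 members in each bird at 42, 126 and 180 days of age. Symbols are birds with their replicate number, which pairs no birds across ages, and the bar is the mean with 1 SD (n = 5), drawn no lower than 0. COX4I1 is lower in all birds at 126 than at 42 days, and NDUFB6, ATP5D and COX6A1 each have 1 bird far above the others at 42 days.

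Complex II oxidises succinate, is the only complex with all its subunits coded in the nucleus, and is also an enzyme of the citrate cycle. SDHA, the flavoprotein that binds succinate, had 130 ± 10.05, 130 ± 28.8 and 131 ± 12.6 FPKM at 42, 126 and 180 days (SD, n = 5 each). Its mean was nearly the same at each age, with a log2 fold change of 0.01 at 180 against 42 days (95% interval -0.28 to 0.29). SDHB, which carries the iron-sulfur clusters, had 118, 136, 129.8, 141 and 108 FPKM at 126 days, against 132, 115, 103, 112 and 107 FPKM at 42 days. The difference of 0.15 on the log2 scale had a 95% interval of -0.16 to 0.46. SDHD, a membrane anchor, was lower than both, at 20.1 ± 2.45 FPKM at 126 days and 17.5 ± 2.099 FPKM at 42 days, a difference of 0.20 on the log2 scale (95% interval -0.13 to 0.53). All 3 genes lay above the median of all genes in both comparisons with 42 days, and none passed the test.

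Complex III had the lowest summed level of the members found, with 155 ± 20.9, 147 ± 19.1 and 135 ± 9.81 FPKM at 42, 126 and 180 days. No member was over 50 FPKM, and UQCRQ was the lowest with a mean of 7.23 FPKM. Its core protein UQCRC1 had 34.3 ± 5.92 FPKM at 126 days against 38.0 ± 7.81 FPKM at 42 days, and the Rieske iron-sulfur protein UQCRFS1 had 30.1 ± 3.79 FPKM against 26.8 ± 5.56 FPKM. At 180 against 42 days, all 7 members had a fold change below 0, between -0.43 and -0.01 on the log2 scale, while 7419 of 11692 genes tested were also below 0.

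UQCRB, a small subunit near the ubiquinone site, had 8.52, 8.99, 9.60, 9.62 and 11.9 FPKM at 180 days, against 15.8, 14.2, 10.8, 11.2 and 12.3 FPKM at 42 days. Of the birds at 180 days, 4 of 5 lay below every bird at 42 days. UQCRB thus differed by -0.39 on the log2 scale (SE 0.17, 95% interval -0.76 to -0.03), with an adjusted p of 0.240 (limma). UQCRHL, whose RefSeq entry has the hinge protein name UQCRH as a synonym, had a log2 fold change of -0.43 (95% interval -0.88 to 0.01, adjusted p = 0.296, limma) in the same comparison. UQCR10 differed least, by -0.01 (95% interval -0.39 to 0.37). No member was without overlap between 180 and 42 days in either direction, where 1.21% of all genes were higher and 4.46% lower without overlap.

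Complex IV, cytochrome c oxidase, was the complex whose summed level did not overlap between a pair of ages. It had 249, 273, 250.3, 279.7 and 231 FPKM in the birds at 126 days, against 355, 293, 287, 288 and 329.6 FPKM at 42 days. These ages did not overlap, and the birds at 180 days, between 253 and 304 FPKM, lay across both. COX4I1 alone made up 53.9% of the summed level of the 8 members over all birds. Without COX4I1, the other 7 members summed to 123 ± 11.04 FPKM at 126 days and 138 ± 15.3 FPKM at 42 days (SD, n = 5 each). Their ranges overlapped, with 106 to 133 FPKM at 126 days and 120.5 to 163 FPKM at 42 days.

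COX4I1, which codes for the general form of subunit 4 and binds ATP as a regulator of the enzyme, had 122.6, 140.03, 129.5, 148 and 125 FPKM at 126 days, against 192, 155, 166, 152.5 and 196 FPKM at 42 days. The ages did not overlap. This held for 1 of 64 members in this direction and for 5.08% of all genes tested, and for no member in the other direction, where it held for 1.37%. The log2 fold change was -0.37 (SE 0.14, 95% interval -0.68 to -0.06), with an adjusted p of 0.183 (limma). At 180 days COX4I1 had 124, 134, 177.5, 143 and 147 FPKM, a difference of -0.25 on the log2 scale from 42 days (95% interval -0.57 to 0.07). COX6C, the second most abundant member of the complex, had a log2 fold change of -0.24 at 126 against 42 days (95% interval -0.61 to 0.13). COX5A, which had the highest one among the members of the complex, reached 0.16 (95% interval -0.20 to 0.52).

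COX6A1, the general form of a subunit that has a separate muscle form, was low and varied between birds. It had 11.7, 5.42, 5.54, 2.62 and 1.28 FPKM at 180 days, against 2.1, 0.76, 3.73, 0.77 and 0.85 FPKM at 126 days, and the ages overlapped. The log2 fold change was 1.57 (SE 0.59, 95% interval 0.29 to 2.85, adjusted p = 0.216, limma). At 126 against 42 days it was -1.33 (SE 0.57, 95% interval -2.56 to -0.10, adjusted p = 0.221, limma), the lowest of all members. At 42 days COX6A1 had 3.61, 12.98, 1.97, 1.64 and 3.34 FPKM.

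COX7A2, also the general form of a subunit with a muscle form, averaged 1.37 FPKM, the lowest level among the members of complex IV. It had 3.91 FPKM in replicate 1 at 126 days and 3.89 FPKM in replicate 1 at 180 days, while the other birds of those ages had between 0.48 and 1.05 FPKM. These were also the birds with the highest levels of immune cell markers of their age. Of 15 T cell markers listed, 12 were in the table and none was at 0 in all birds of an age. Their sum was 35.3 FPKM in replicate 1 at 126 days and 122 FPKM in replicate 1 at 180 days, against 4.42 to 10.1 FPKM at 42 days, 12.4 to 15.9 FPKM in the other birds at 126 days and 7.37 to 12.1 FPKM in the other birds at 180 days. All 11 myeloid markers were found, with sums of 656 and 1517 FPKM in these birds and at most 249 FPKM in the others. The same birds were also highest of their age in the sums of markers of other cell types. Erythrocyte markers had 277 and 160 FPKM in them, endothelium markers 206.5 and 156 FPKM, and adipocyte markers 59.0 and 51.7 FPKM. SDHD was also highest of its age in these birds, with 24.0 and 26.8 FPKM, as were NDUFS4, ATP5E, ATP5G3 and ATP5H. Of the 64 members, the bird at 126 days was highest of its age for 14 and lowest for 21. The bird at 180 days was highest for 11 and lowest for 18. The part of any of these cell types in the levels of these members was not tested. Without both birds, 0 of 64 members were called at 180 against 126 days, where 4.48% of 10971 genes tested were called.

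Complex V had a summed level of 929 ± 146, 938 ± 120 and 855 ± 59.5 FPKM at 42, 126 and 180 days. ATP5S, a coupling factor rather than a core subunit, was lowest with a mean of 1.40 FPKM, and 4 of 16 members were under 10 FPKM and 6 over 50 FPKM. The catalytic subunit beta, ATP5B, was the most abundant of all members with a mean of 327 FPKM. ATP5B had 319, 284, 317, 236 and 323 FPKM at 180 days, against 243, 388, 367, 411 and 329 FPKM at 126 days. The ages overlapped, with a difference of -0.22 on the log2 scale (95% interval -0.58 to 0.14). ATP5F1AZ, the alpha subunit that forms the catalytic head with beta, followed with 110 ± 12.2 FPKM at 180 days and 123 ± 24.4 FPKM at 126 days.

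Subunits of the rotor and of the stalks had fold changes of either sign at 180 against 126 days, and none passed the test. ATP5PO, the protein that joins the outer stalk to the head, had 51.8, 47.1, 44.6, 47.2 and 57.7 FPKM at 180 days, against 77.7, 66.5, 59.4, 71.9 and 57.4 FPKM at 126 days. Only the bird with 57.7 FPKM at 180 days reached the lowest bird at 126 days, and the log2 fold change was -0.42 (SE 0.13, 95% interval -0.70 to -0.13, adjusted p = 0.143, limma). ATP5C1, the gamma subunit of the central shaft, had 102 ± 13.9 FPKM at 180 days and 132 ± 21.7 FPKM at 126 days, a difference of -0.36 on the log2 scale (SE 0.14, adjusted p = 0.245, limma).

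ATP5D, the delta subunit at the foot of the same shaft, had a fold change of the opposite sign. It had 75.0, 116, 69.9, 64.9 and 40.3 FPKM at 180 days, against 39.5, 38.2, 58.0, 42.7 and 34.2 FPKM at 126 days. The log2 fold change was 0.73 (SE 0.25, 95% interval 0.19 to 1.26, adjusted p = 0.174, limma). At 42 days ATP5D had 58.0, 122, 34.0, 43.9 and 52.2 FPKM, so the youngest birds again covered both later ages. Over the 16 members, log2 fold changes ran from -0.42 (ATP5D) to 0.22 (ATP5C1) at 126 against 42 days, from -0.31 (ATP5PO) to 0.36 at 180 against 42 days and from -0.42 (ATP5PO) to 0.73 (ATP5D) at 180 against 126 days. ATP5PF, a stalk subunit, had the highest fold change of these members at 180 against 42 days, 0.36 (95% interval -0.15 to 0.87).

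Complex V holds pairs of genes for 1 subunit, and their shares were looked at after the values had been seen. The alpha subunit has a copy on each sex chromosome in birds, and hens carry both Z and W. The W copy, ATP5A1W, made up between 19.2% and 29.4% of the sum of ATP5A1W and ATP5F1AZ over all 15 birds. ATP5A1W was spread over 4 entries of the table, of which the largest held 47.87% of its FPKM, while ATP5F1AZ had 1. The size of the share thus rests on the summing of entries. Its mean share was 23.5%, 21.8% and 22.7% at 42, 126 and 180 days. Subunit c of the membrane ring is coded by ATP5MC1 and ATP5G3, and ATP5MC1 made up 47.9%, 47.9% and 47.3% of their sum. No share differed between ages by an exact two-sided permutation test, with an adjusted p of 0.984 in each of the 6 tests (5 birds against 5, smallest possible unadjusted p 0.00794). The largest difference was -1.74 percentage points for ATP5A1W at 126 against 42 days (exact p = 0.437). Near-identical copies can share reads, so the shares depend on how those were assigned.

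The spread between birds was small for most members. The coefficient of variation had a median of 17.4%, 17.1% and 13.2% over the 64 genes at 42, 126 and 180 days, and it was above 50% for 4, 4 and 3 genes. NDUFB6, NDUFS5, COX6A1, COX7A2 and ATP5D are the genes with such values. In part the spread followed single birds. Replicate 1 at 42 days was the highest of its age for 36 of 64 members and the lowest for 1, and replicate 3 was the lowest for 28. Replicate 5 at 126 days was the lowest for 29 and the highest for 1. Replicate 1 at 126 days was the lowest for 21 and the highest for 14. After rescaling each bird to the same FPKM sum, replicate 1 at 42 days was still the highest for 31 members and replicate 5 at 126 days the lowest for 25. Replicate 3 at 42 days, replicate 1 at 126 days and replicate 2 at 180 days were then each the lowest for 24.

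Several genes with a wide spread at 42 days shared their highest bird. Replicate 2 had the highest level of its age for NDUFB6, NDUFS5, NDUFB2, COX6A1 and ATP5D, and also for the core subunits NDUFS3 with 34.8 FPKM and NDUFS7 with 42.4 FPKM. Replicate 3 was the lowest for NDUFB6, NDUFS5, NDUFB2 and ATP5D. Other genes with a wide spread did not follow these birds. ATP5PF was lowest in replicate 2 with 12.4 FPKM and highest in replicate 1 with 28.9 FPKM, COX7A2 was highest in replicate 3 and NDUFB9 in replicate 1. At 126 days, replicate 3 had the highest level of its age for NDUFB6, NDUFS5, NDUFB2, COX6A1, ATP5D, NDUFS3 and NDUFS7. At 180 days these genes had no common highest bird. NDUFB6, NDUFS5, NDUFB2, COX6A1 and ATP5D are also the members named above as higher at 180 than at 126 days without adjustment. They are therefore not separate observations. All genes in this paragraph were picked after their values were seen, so that no test was made of them.

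The subunits coded in mitochondrial DNA, which the name patterns leave out, took a far larger part of the signal. All 13 were in the table, and they summed to 66535 ± 16902, 98898 ± 25479 and 95652 ± 18767 FPKM at 42, 126 and 180 days (SD, n = 5 each). They made up 14.97%, 21.5% and 21.0% of the FPKM of a bird on average, and the 64 nuclear members 0.587%, 0.546% and 0.537%. FPKM are relative to all mapped fragments, and the part of this share in the values of the members was not tested.

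The mitochondrially encoded genes had log2 fold changes above 0 in 13 of 13 cases at 126 against 42 days, with a median of 0.59, and in 12 of 13 at 180 against 42 days, with a median of 0.51. At 180 against 126 days the median was -0.13, with 3 of 13 above 0. Over all genes tested, 4206 of 11482, 4273 of 11692 and 5827 of 11515 were above 0 in these comparisons. The 13 genes are not independent cases, as replicate 1 at 126 days was highest of its age for each but ND6. Over the other settings and birds left out, the fold change at 126 against 42 days fell as low as 0.28 for ATP6 and 0.37 for ATP8. Only ND2 passed the test, 1 of 13 genes in each comparison with 42 days, where 3.21% and 3.41% of all genes were called. At an unadjusted p under 0.05 (limma), 6 and 5 of the 13 were higher and 0 lower at 126 and 180 against 42 days. Over all genes, 5.55% and 4.86% were higher at that limit. ND2 codes for a membrane subunit of complex I that takes part in pumping protons. It had 7860.5, 5181, 4939.7, 3955 and 2714 FPKM at 126 days and 3822, 5901, 4023, 2758 and 2953 FPKM at 180 days, against 2207, 1548, 1957, 2165 and 1126 FPKM at 42 days. Neither later age overlapped with 42 days. Of the 13 genes, 1 was higher without overlap at 126 against 42 days and 2 at 180 against 42 days, ND2 and COX3. Over all genes the shares were 1.37% and 1.21%.

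ND2 rose by 1.41 on the log2 scale at 126 against 42 days (SE 0.30, 95% interval 0.77 to 2.05, adjusted p = 0.0283, limma) and by 1.10 at 180 against 42 days (SE 0.26, 95% interval 0.54 to 1.66, adjusted p = 0.0377, limma). The call at 126 days was lost without replicate 2 or 4 at 42 days (adjusted p = 0.0705 and 0.0509, limma) or without replicate 2, 3 or 4 at 126 days (0.0717, 0.0735 and 0.0506). The call at 180 days was lost when any bird at 42 days or replicate 2, 3 or 5 at 180 days was left out, with an adjusted p of at most 0.102 (limma). The fold change stayed between 0.94 and 1.60 in the fits that left out a bird. Over the other alternatives the adjusted p (limma) lay between 0.0126 and 0.121 at 126 days and between 0.0250 and 0.161 at 180 days, and quantile normalization lowered the fold changes to 0.96 and 0.79. ND1 (0.88, adjusted p = 0.117, limma) and COX3 (0.53, adjusted p = 0.243, limma) had fold changes in the same direction at 126 against 42 days that did not pass the test. At 180 against 42 days COX3 was higher by 0.68 without overlap and did not pass the test either (95% interval 0.20 to 1.17, adjusted p = 0.127, limma).

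**Figure D4:**
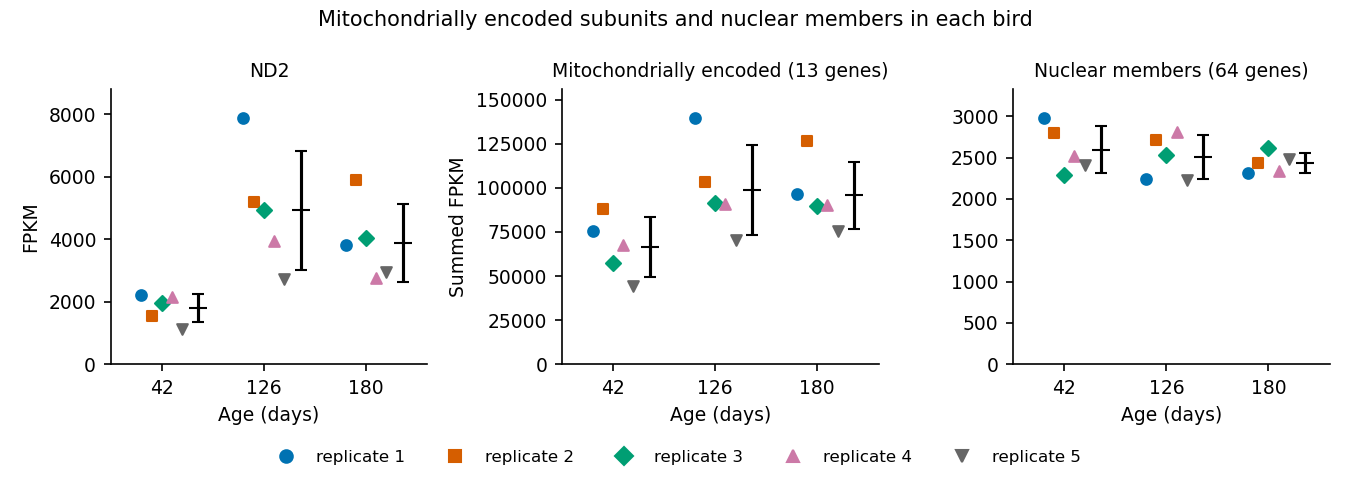
FPKM of ND2 and summed FPKM of the 13 mitochondrially encoded subunits and of the 64 nuclear members (vertical axes, starting at 0, with different scales) in each bird at 42, 126 and 180 days. Symbols are birds and the bar is the mean with 1 SD (n = 5). ND2 is higher in all birds at 126 and 180 days than at 42 days, while the nuclear members overlap at all ages.

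Genes that build or serve the complexes were counted in the same fits. Of the assembly factors tested, 14 for complex I, 5 for complexes II and III, 18 for complex IV and 3 for complex V, 0 were called at 126 against 42 and at 180 against 42 days, where 3.21% and 3.41% of all genes were. At an unadjusted p under 0.05, 10 of these 40 genes were lower and 1 higher at 126 against 42 days, beside 14.1% and 5.55% of all genes, and 6 were lower and 2 higher at 180 against 42 days, beside 12.8% and 4.86%. At 180 against 126 days 3 were higher and 4 lower at that limit, beside 8.68% and 7.11% of all genes, and 1 of 40 was called, where 1.25% of all genes were. This was COA3, which helps to start the assembly of complex IV around COX1. COA3 had 3.62, 3.89, 2.40, 2.29 and 1.51 FPKM at 180 days, against 0.23, 0.50, 0.87, 0.56 and 0.34 FPKM at 126 days. These ages did not overlap, which held in this direction for 1 of 18 complex IV assembly factors and for 2.54% of all genes. COA3 rose by a log2 fold change of 2.26 (SE 0.37, adjusted p = 0.0206, limma). The call was lost without replicate 2 or 3 at 180 days (adjusted p = 0.0610 and 0.0644, limma) and with all 3 ages in one fit (0.0991), and the adjusted p lay between 0.0166 and 0.0991 over the alternatives that left out no single bird. At 42 days COA3 had 0.74, 1.05, 0.10, 0.16 and 4.29 FPKM.

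Among 17 regulators of mitochondrial content tested, 1 was called at 126 against 42 days, where 3.21% of all genes were. In the comparisons of 180 with 42 and with 126 days 0 were called (limma), where 3.41% and 1.25% of all genes were. At an unadjusted p under 0.05, 4 of the 17 were found at 126 against 42 days, beside 19.6% of all genes. At 180 against 42 and 180 against 126 days there were 3 and 5, beside 17.6% and 15.8% of all genes. MEF2A, a transcription factor of muscle, had 50.7, 52.0, 48.3, 52.2 and 52.9 FPKM at 126 days, against 83.4, 87.8, 74.3, 74.4 and 67.8 FPKM at 42 days, without overlap. Of the 17 regulators, 2 were lower and 1 higher without overlap in this comparison, beside 5.08% and 1.37% of all genes. MEF2A fell by 0.59 on the log2 scale (SE 0.13, adjusted p = 0.0348, limma). The call remained in 2 of 10 fits that left out a bird, those without replicate 5 at 42 days (adjusted p = 0.0199, limma) and without replicate 1 at 126 days (0.0424), and in the other 8 the adjusted p reached at most 0.0938. Over the other alternatives it lay between 0.0187 and 0.0936 (limma). PPARGC1A, a coactivator that drives mitochondrial biogenesis, was low at 0.836 ± 0.268, 0.704 ± 0.33 and 1.40 ± 0.915 FPKM at 42, 126 and 180 days. TFAM, which packs and transcribes mitochondrial DNA, had 12.4 ± 2.598 FPKM at 180 days against 19.1 ± 5.86 FPKM at 126 days, a difference of -0.60 on the log2 scale (95% interval -1.08 to -0.12, adjusted p = 0.208, limma).

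Cytochrome c, carriers and uncoupling genes, and the citrate cycle gave no calls. CYCS, cytochrome c, which links complexes III and IV, had 143 ± 20.6 FPKM at 126 days and 113 ± 21.0 FPKM at 42 days, a difference of 0.35 on the log2 scale (95% interval -0.03 to 0.72). Of 12 citrate cycle genes and 9 carriers and uncoupling genes tested, 0 passed the test (limma) in any comparison. Over all genes, 3.21%, 3.41% and 1.25% passed it. At 126 and 180 against 42 days, the highest log2 fold change of the 9 carriers and uncoupling genes was 1.33 and 1.42. In each, 1 of them was higher without overlap, beside 1.37% and 1.21% of all genes. Of the 9 genes, 6 and 7 were below 0, where 7276 of 11482 and 7419 of 11692 genes tested were. The lowest adjusted p of this list was 0.102 and 0.0563 (limma). At an unadjusted p under 0.05 there were 2, 3 and 1 citrate cycle genes and 1, 2 and 1 carrier genes. These counts are for 126 against 42, 180 against 42 and 180 against 126 days. In each list 1, 1 and 0 of these genes were higher at the later age. Over all genes the share was 19.6%, 17.6% and 15.8%.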

How the data were processed

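Reads had been filtered with Cutadapt and mapped to the chicken reference genome with HISAT2 2.2.1 by the authors, and StringTie 2.1.6 is named in the submitters' processing notes. The genome build is not given in the sources used here, so no positions are printed. The deposited FPKM values have 2 decimals, are not scaled to a common sum and hold no read counts, so depth and counting error are unknown. DESeq2, with which the authors tested counts, could not be applied to FPKM. Here entries with the same gene name were summed (48836 entries, 23599 names) and 2 ages at a time were compared on log2(FPKM + 0.1) with limma 3.58.1 (R 4.3.3, trend on the mean), over gene names with a mean of at least 0.5 FPKM. Fold changes on this scale understate changes of low genes. The procedure was tested on simulated data with shifts larger than any fold change of the members. That test cannot show whether changes of the members' size would be found. Permutation tests went through every split of the birds in Python 3.11.15, and scipy 1.17.1 gave their Benjamini-Hochberg adjustment.

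The members and lists were chosen with earlier results of these data known. Named were members called in a test, the 2 most abundant and the extreme members of each complex, complex II, isoform genes, and called genes of the lists with CYCS, PPARGC1A and TFAM. Shares of muscle isoforms could not be computed because the partner genes COX4I2, COX6A2 and COX7A1 were not found under these names. Alternatives were a pseudocount of 1, no filter, a mean of at least 1 FPKM, FPKM rescaled to 1000000, the replicate number as a block, a single fit of all 3 ages, quantile normalization, the highest entry of each name only, and each bird left out. Leaving out both birds highest in T cell markers was chosen after seeing the data. Labels give no batch or date.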

Additional observations from a re-analysis of the deposited data

Results flagged for a closer look

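In 90 groups of 5 birds (25 members and the 5 complex sums at 3 ages), 10 had a highest or lowest bird that stood apart from the other 4. The gap had to exceed Dixon's 95% limit of 0.71 of the range, which flags about 1 in 20 groups of normally distributed values. That rate is no comparison for the 10, because members were named in part for extreme fold changes in these data and the sums contain them. At 42 days replicate 2 was high for NDUFB6 (26.02 FPKM, others 0.88 to 7.16), COX6A1 (12.98 FPKM, others 1.64 to 3.61) and ATP5D (121.66 FPKM, others 33.97 to 58.01). At 126 days replicate 5 was low for UQCRB (8.14 FPKM, others 12.64 to 13.97). COX7A2 was high in replicate 1 at 126 days (3.91 FPKM, others 0.49 to 1.05) and in replicate 1 at 180 days (3.89 FPKM, others 0.48 to 0.89), and SDHD was high in that 180-day bird too (26.82 FPKM, others 16.51 to 19.46). At 180 days NDUFV2 was high in replicate 3 (20.9 FPKM, others 16.51 to 17.45). The sum of complex IV was high in the same bird (303.83 FPKM, others 253.46 to 267.6), and the sum of complex V was low in replicate 4 (753.65 FPKM, others 863.48 to 903.95).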

How the results depend on the processing

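The count of members called was 0 in each comparison and under every alternative, with 1375 values of the 25 named members recomputed, of which 0 passed the threshold and 8 moved by more than 1 SD between birds. Among the mitochondrially encoded subunits, the count called was 1 at 126 against 42 and at 180 against 42 days. It was 0 in both with no filter, with quantile normalization and with the highest entry only, and 0 at 180 against 42 days with the replicate block, and it lay between 0 and 1 when a bird was left out. The cause was not tested. The counts of all genes called moved more. They were 369, 399 and 144 at 126 against 42, 180 against 42 and 180 against 126 days, but 56, 189 and 20 with the highest entry only, and 204, 329 and 65 with no filter. With a bird left out they lay between 80 and 469, 183 and 1036, and 15 and 501. The lowest counts came without replicate 2 at 42 days (80 and 183) and without replicate 2 at 180 days (15), and the highest without replicate 1 at 126 days (469) and without replicate 1 at 180 days (1036 and 501). Replicate numbers are shared between ages, but the birds differ. Deviations of birds with the same number correlated between -0.128 and 0.320, and a bird correlated best with its own number in 5 of 15 cases. By comparison these were 2 of 5 at 126 against 42, 0 of 5 at 180 against 42 and 3 of 5 at 180 against 126 days. The labels do not say whether the numbers mark a batch. With the replicate block 295, 325 and 392 genes were called, and 0 members. No read depth is known, so differences in genes near 1 FPKM could not be weighed by counting error.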
